A study of Mus musculus with 23 samples.

Results

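A set of 44 mouse genes that encode homeodomain and paired-box transcription factors outside the Hox clusters was examined in 23 RNA sequencing libraries. The genes were chosen by symbol, as factors of the kind that polycomb complexes often hold silent, and each symbol was found on 1 of the 39017 rows of the count tables. The set covers the families Dlx, Lhx and Isl, Nkx2 and Nkx6, Six2, Six4 and Six6, Pax, Barhl, Gsx, Meox, Msx and the paired-like genes Prrx, Pitx, Alx and Shox. Of the 44 genes, 14 reached 1 CPM (counts relative to a library's scaled total) in at least 1 library and 30 did not.

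All libraries came from C57BL/6 mouse brain. Genes were delivered into the cortex of embryos by in utero electroporation with the piggyBac transposon, and Trp53 was targeted with CRISPR/Cas9. GFP-positive cells were sorted and expanded before RNA was taken, so only cells that had taken up the cargo, and their progeny, were sampled. Preneoplastic cells were collected 72 h later. The EV ctl group (2 libraries) was labelled wild type, and EV-PDGFRA (3 libraries) overexpressed Pdgfra, the receptor for platelet-derived growth factor. WT-AP (4 libraries) overexpressed wild-type histone H3.3, was Trp53-/- and carried an Atrx shRNA. K27M-AP (4 libraries) overexpressed the K27M mutant of that histone instead, with the same Trp53 and Atrx changes, and K27M-APP (2 libraries) also overexpressed Pdgfra. Tumours were taken 5 to 9 months after electroporation. They were K27M-AP T (3 libraries), K27M-APP T (4 libraries) and K27M-P T (1 library, H3.3K27M and Trp53-/- with no Atrx shRNA). The labels do not say that replicates came from separate animals, so p-values measure only the spread between these libraries. In bulk libraries fewer cells expressing a gene and less RNA per cell cannot be told apart.

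Library totals ran from 37300947 to 68642582 counts, so that 1 CPM stood for 38.1 to 68.9 counts. Trp53 was at 40.9 to 51.6 CPM in the 5 libraries of EV ctl and EV-PDGFRA and at 7.14 to 27.7 CPM in the others, except for the tumour library labelled K27M-AP T 4 at 49.5 CPM. Atrx was at 184 to 300 CPM for EV ctl and EV-PDGFRA and at 46.0 to 163 CPM in the K27M-AP, K27M-APP, K27M-AP T and K27M-APP T libraries. In WT-AP it ran from 112 to 262 CPM, and in K27M-P T it was at 291 CPM. Pdgfra was at 409 to 1891 CPM in the groups labelled as overexpressing it and at 33.5 to 412 CPM elsewhere. The neural progenitor markers Nes, Sox2, Vim, Fabp7, Pax6 and Hes5 summed to 2304 to 11120 CPM, with all 6 at or above 1 CPM in every library. Markers of red blood cells summed to at most 0.780 CPM, of microglia and macrophages to 6.34 to 11.6 CPM, of endothelium to 1.51 to 18.5 CPM and of fibroblasts and meninges to 7.87 to 212 CPM. Csf1r alone made 6.22 to 11.45 CPM of the microglia and macrophage list, in which C1qa and Tyrobp were at 0 in all 23 libraries. Kdr alone made 1.16 to 16.8 CPM of the endothelial list, in which Cdh5 and Cldn5 reached at most 0.184 and 0.203 CPM. The skeletal muscle and neural crest list summed to at most 0.220 CPM. Results that rest on K27M-AP T 4 are given with and without it.

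Polycomb repressive complexes keep developmental regulators silent in cells where they are not needed. Their hallmark is methylation of histone H3 at lysine 27, placed by the enzyme Ezh2, and the K27M mutant histone interferes with that enzyme. Homeobox and paired-box genes are classic polycomb targets, many of them start at promoters rich in CpG dinucleotides, and each is normally switched on in a restricted part of the embryo. In the forebrain, Gsx and Dlx factors pattern the ventral domain that makes inhibitory neurons, and Prrx, Alx, Meox and Msx factors are best known from limb and head mesenchyme. No histone mark was measured in these libraries.

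Promoter sequence from RefSeq (GRCm38.p6) was held for 35 of the 44 genes. The 9 others were Dlx3, Dlx4, Dlx5, Dlx6, Lhx5, Pax3, Pitx1, Meox1 and Alx4. Below are the stretches upstream of the starts of Isl2 and Meox2, whose levels differed in a test between groups, of Six4, which was expressed in every library, and of Six2, which was nearly absent. They run 5′ to 3′ on the strand of the gene, leave out annotated exons of the same gene, and have each CG dinucleotide in capitals.
Isl2, chr9:55540899-55541147, plus strand: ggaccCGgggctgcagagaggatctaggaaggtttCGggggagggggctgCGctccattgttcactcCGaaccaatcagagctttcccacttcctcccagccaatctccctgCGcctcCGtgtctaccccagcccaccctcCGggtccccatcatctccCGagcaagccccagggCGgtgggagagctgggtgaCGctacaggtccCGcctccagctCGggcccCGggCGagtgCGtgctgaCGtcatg
Meox2, chr12:37108290-37108539, plus strand: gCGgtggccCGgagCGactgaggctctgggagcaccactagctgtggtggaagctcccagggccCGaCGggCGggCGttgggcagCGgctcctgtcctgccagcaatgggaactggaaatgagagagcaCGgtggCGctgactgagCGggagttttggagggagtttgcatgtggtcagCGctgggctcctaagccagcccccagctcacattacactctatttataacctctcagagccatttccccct
Six4, chr12:73113457-73113675, minus strand: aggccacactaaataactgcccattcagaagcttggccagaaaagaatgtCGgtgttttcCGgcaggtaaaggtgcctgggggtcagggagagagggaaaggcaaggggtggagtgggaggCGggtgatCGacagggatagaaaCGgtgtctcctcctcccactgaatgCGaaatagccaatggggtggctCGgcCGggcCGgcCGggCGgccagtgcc
Six2, chr17:85688275-85688504, minus strand: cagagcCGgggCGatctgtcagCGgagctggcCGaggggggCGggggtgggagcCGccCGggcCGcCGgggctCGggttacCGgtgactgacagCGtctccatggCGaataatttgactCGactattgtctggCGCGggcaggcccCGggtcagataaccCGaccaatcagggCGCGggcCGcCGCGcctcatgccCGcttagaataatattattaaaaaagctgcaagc
The Isl2 stretch of 249 bases held 16 CG dinucleotides, the Meox2 stretch of 250 bases held 12, the Six4 stretch of 219 bases held 11 and the Six2 stretch of 230 bases held 24. The Isl2 window lay inside the annotated gene span, upstream of an internal start. The nearly silent Six2 had the densest run of CG dinucleotides of these 4 stretches.

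CG dinucleotides were counted in each whole RefSeq window of 300 bases (250 before to 50 after a start), where CG reads the same on both strands. Over all 32851 windows of 27025 genes the median was 7 CG dinucleotides, and 35.8% had an observed to expected ratio of at least 0.6. The 42 windows of the 35 members had a median of 17, and 64.3% passed that ratio. The share was 64.3% for the 14 windows of members that reached 1 CPM and also 64.3% for the 28 windows of members that did not. The members' windows thus had a higher median than the table as a whole, and the share past the ratio was the same for expressed and silent members. These are descriptions with no test. Barhl2 had the highest count of any member window, 42, and Prrx1, the most abundant member, had 6.

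**Figure D1:**
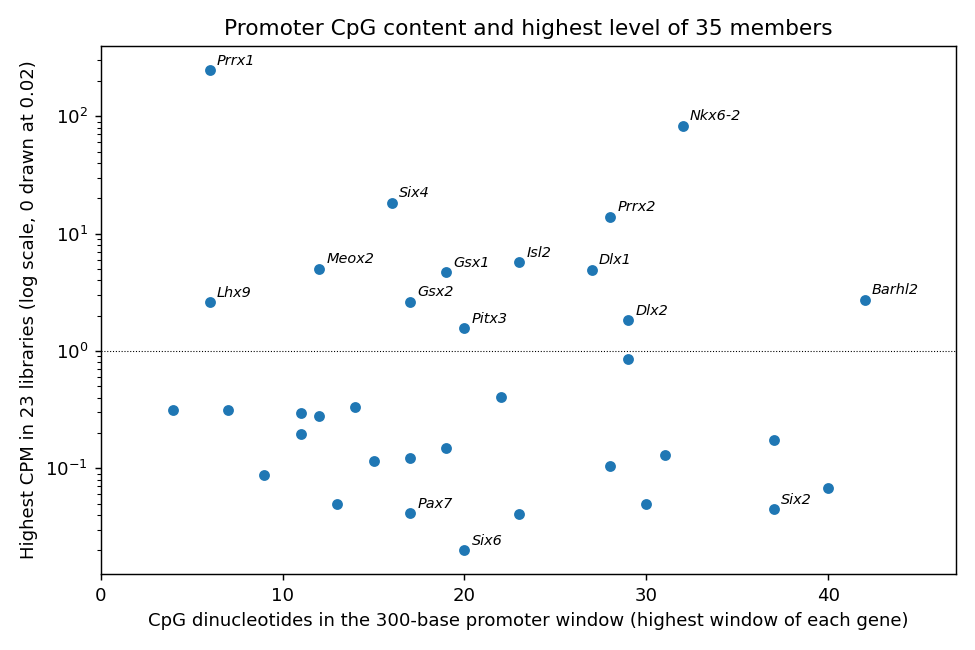
Each point is 1 of the 35 members with a RefSeq promoter, with the number of CpG dinucleotides in its most CpG-rich 300-base window on the horizontal axis and its highest level in 23 libraries (CPM, log scale, 0 drawn at 0.02) on the vertical axis. The dotted line marks 1 CPM, and points above it span 6 (Prrx1, Lhx9) to 42 (Barhl2) CpG dinucleotides.

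Most of the set was silent or close to it. Six6, an eye field factor, had no count in any library, and Six2 and Pax2, both kidney progenitor factors, had counts in 1 library each. In all, 19 of the 44 genes never reached 0.2 CPM, 20 had counts in at most 5 of 23 libraries, and 12 had 10 counts or fewer over all libraries together. None of the 7 Pax genes reached 1 CPM, and the highest among them was Pax8 at 0.315 CPM. Among the genes under 1 CPM the nearest to it were Meox1 at 0.904 CPM and Msx1 at 0.847 CPM, followed by Dlx4 at 0.683, Dlx6 at 0.604 and Msx2 at 0.405 CPM. Barhl1, Dlx5, Lhx8, Pax9 and Nkx2-1 peaked between 0.276 and 0.368 CPM. The remaining members at most reached 0.195 CPM (Shox2). These were Dlx3, Lhx1, Lhx3, Lhx4, Lhx5, Lhx6, Nkx2-3, Nkx2-5, Nkx6-1, Pax1, Pax3, Pax5, Pax7, Pitx1 and Isl1.

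The number of members at or above 1 CPM per library ran from 3 to 9, with a median of 6. EV ctl libraries had 3 and 6, EV-PDGFRA 4 to 5, WT-AP 5 to 8, K27M-AP 6 to 8 and K27M-APP 6 and 7. Tumour libraries had 6 to 8 (K27M-AP T), 5 to 9 (K27M-APP T) and 9 (K27M-P T). The EV ctl range overlapped that of every other group except K27M-P T, and no test was made on this count. Of all 39017 rows 38.3% to 40% reached 1 CPM per library, against 6.82% to 20.5% of the 44 members. Prrx1, Six4 and Nkx6-2 passed 1 CPM in all 23 libraries and Prrx2 in 21, and the other 10 did so in 1 to 11 libraries.

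**Figure D2:**
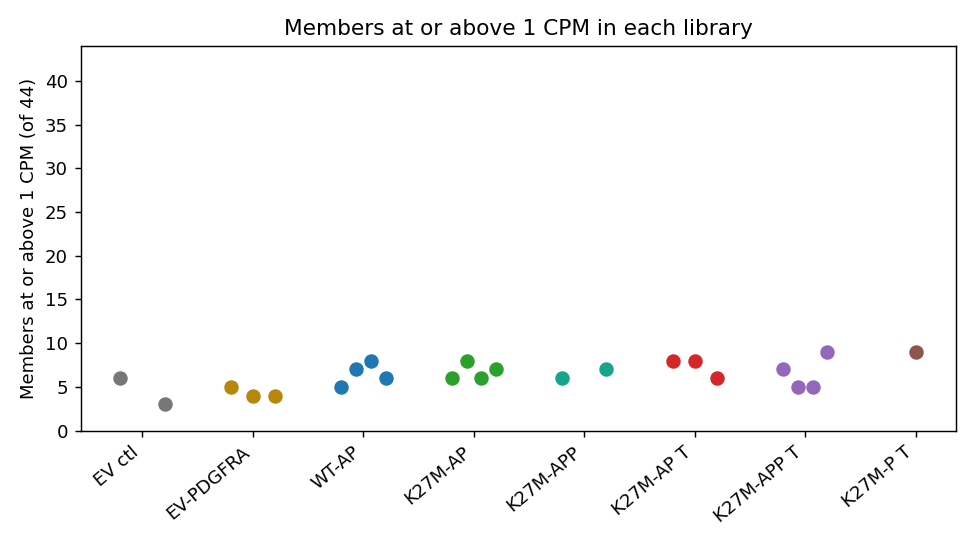
Each point is 1 library, with its group on the horizontal axis and the number of the 44 genes at or above 1 CPM on the vertical axis, which runs from 0 to 44. Counts lie between 3 and 9 in every library.

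Levels differed between the 8 groups for 2 members when all groups were tested together. In that edgeR quasi-likelihood F-test over 21909 genes, with Benjamini-Hochberg adjustment, 1088 genes or 4.97% had an adjusted p below 0.05. Of the 44 members 25 passed the filter on low counts, and Alx4 (adjusted p = 0.00356) and Isl2 (adjusted p = 0.0085) were called. A further 11 members had an unadjusted p below 0.05, making 13 of 25, where the share over all genes tested was 17.8%. With K27M-P T as a group of 1 library, a gene could pass this filter on a single high library. Alx4, Dlx4, Dlx6 and Meox1 passed it but not that of the preneoplastic fit, and Dlx5, Msx2 and Nkx2-1 passed that of neither smaller fit. Members thus entered partly through libraries where they were high, and 13 of 25 is not read as an excess. DESeq2 called 8 members, adding Barhl2, Meox2, Six4, Prrx2, Dlx1 and Meox1, where it called 14.3% of all genes. The test gives no direction, so the levels of each gene follow by family.

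Isl2 (chromosome 9, 55538672 to 55546180 on GRCm38), a LIM homeodomain factor of motor and sensory neurons, had its highest levels in tumours. It was at 5.68, 0.616 and 2.73 CPM for K27M-AP T and at 0.293, 2.00, 4.65 and 1.49 CPM for K27M-APP T. The 6 preneoplastic libraries with the mutant histone were at 0.145 to 0.390 CPM, WT-AP at 0.148 to 0.373, EV-PDGFRA at 0.236 to 0.496 and EV ctl at 1.04 and 0.438 CPM. K27M-P T was at 0.536 CPM. All 3 K27M-AP T libraries thus lay above all 4 K27M-AP libraries, and all 4 K27M-APP T libraries above both K27M-APP libraries, while 3 of 8 tumours (K27M-APP T 1, K27M-AP T 2 and K27M-P T) lay inside the range of all 15 preneoplastic libraries.

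For Isl2 the difference of K27M-AP T from K27M-AP was 3.45 (log2, SE 0.852, adjusted p = 0.153 by edgeR's quasi-likelihood test), and that of K27M-APP T from K27M-APP was 3.26 (SE 1.10, adjusted p = 1). Neither passed the threshold. The 2 tumour groups against the 2 matched preneoplastic groups, a contrast added after the data were seen, gave 3.36 (SE 0.722, adjusted p = 0.107). With all 23 libraries in the fit that difference was called (3.37, adjusted p = 0.0206), where 0.607% of all genes were. DESeq2 called it too (adjusted p = 2.51e-05), where it called 2.84% of all genes. Isl2 remained called between the 8 groups without K27M-AP T 4 (adjusted p = 0.0185). It was not called within the earlier count table alone (adjusted p = 0.134) or the later one alone (0.481). Isl1, its close relative, had 12 counts in 3 libraries and at most 0.173 CPM.

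Alx4 (chromosome 2, 93642384 to 93681339), a paired-like factor of limb and skull mesenchyme, stood out in a few tumours. It was at 4.36, 0.575 and 14.2 CPM for K27M-AP T, at 0.0488, 0.0290, 0.735 and 2.02 CPM for K27M-APP T and at 0.580 CPM for K27M-P T. All 15 preneoplastic libraries were at 0 to 0.158 CPM. The 3 K27M-AP T libraries lay above every preneoplastic library, and 2 of 4 K27M-APP T libraries did. Alx4 differed by 5.93 (log2, SE 1.46, adjusted p = 0.153) between K27M-AP T and K27M-AP, which did not pass the threshold, and by 4.58 (adjusted p = 0.411) without K27M-AP T 4. Its call between the 8 groups was lost without that library (adjusted p = 0.0503) and within the later table alone (0.245), and it was kept within the earlier table alone (0.0293).

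The mesenchymal factors Prrx1 and Prrx2 were expressed in nearly all libraries. Prrx1 was at 32.6 and 89.5 CPM for EV ctl, 74.0, 70.9 and 69.6 for EV-PDGFRA, 36.9, 27.2, 41.4 and 32.1 for WT-AP, 35.04, 24.8, 45.9 and 37.1 for K27M-AP and 39.2 and 42.5 for K27M-APP. Tumours were at 37.1, 46.3 and 248 CPM for K27M-AP T, 33.7, 26.8, 56.6 and 59.5 for K27M-APP T and 47.8 for K27M-P T. The value of 248 CPM was that of K27M-AP T 4 and the next highest was 89.5 CPM in EV ctl 5. Prrx2 ran from 0.785 to 6.30 CPM in the other 22 libraries and was at 14.0 CPM for K27M-AP T 4.

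For Prrx1 the difference of K27M-AP T from K27M-AP was 1.61 (log2, SE 0.549, adjusted p = 0.286) with K27M-AP T 4 and 0.21 (adjusted p = 0.888) without it. Prrx2 gave 1.47 (SE 0.545, adjusted p = 0.317) and 0.64 (adjusted p = 0.772). Neither passed the threshold. Prrx1 was lower in K27M-APP T than in K27M-AP T by a log2 difference of -1.30 (adjusted p = 1), and without K27M-AP T 4 the sign turned (0.09). The 4 members Six4, Prrx1, Prrx2 and Alx4 had their highest level of all 23 libraries in K27M-AP T 4. The same library was the highest in the summed neural progenitor list (11120 CPM) and in the polycomb and H3K27 enzyme list (896 CPM). Vim alone made 9986 CPM of that progenitor sum, so the sum mostly gives the level of 1 gene. Its fibroblast and meningeal marker list summed to 56.0 CPM, rank 4 of 23 from the highest, with Twist1, Foxc2, Foxd1 and Tbx18 at 0. The part of these levels in the member values was not tested.

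**Figure D3:**
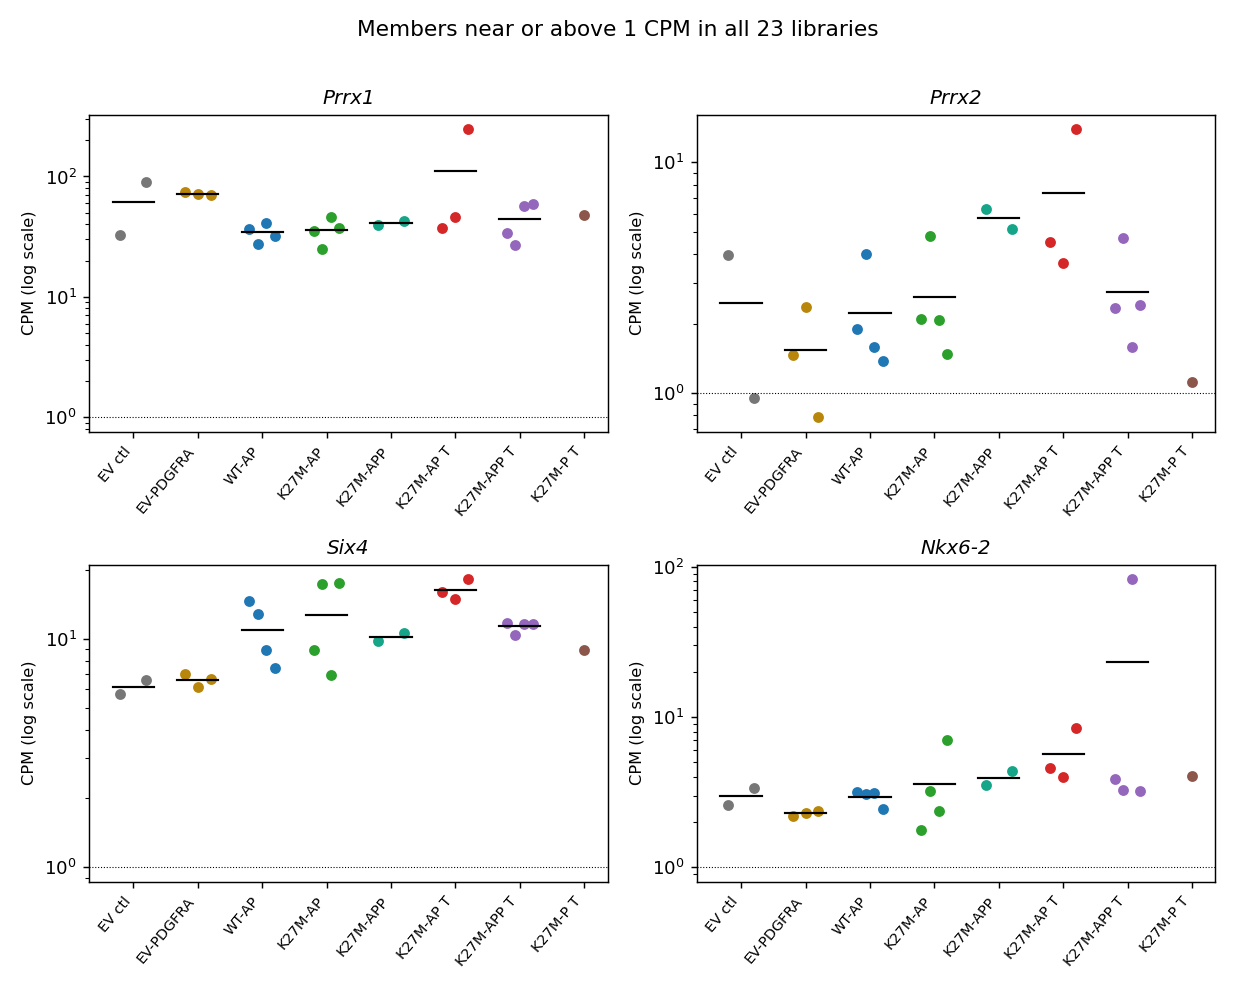
Points are libraries by group and bars are group means for Prrx1, Prrx2, Six4 and Nkx6-2, in CPM on a log axis, with a dotted line at 1 CPM. Prrx1 at 248 CPM and Prrx2 at 14.0 CPM in 1 K27M-AP T library, and Nkx6-2 at 83.2 CPM in 1 K27M-APP T library, lie far above the rest.

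Pitx3, a paired-like factor of dopamine neurons and lens, was at 0 to 1.56 CPM and passed 1 CPM in 7 libraries from 6 groups. It was at 0 for K27M-AP T 4 and K27M-APP T 3. Its F-test between the 8 groups gave an adjusted p of 0.973. Shox2, a factor of limb and heart, had counts in 11 libraries and at most 0.195 CPM.

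Meox2 (chromosome 12, 37108540 to 37179534), a mesodermal homeobox factor also found in vessels, was nearly absent from the libraries without loss of Trp53. It was at 0 and 0.0381 CPM for EV ctl and at 0, 0.0394 and 0 CPM for EV-PDGFRA. WT-AP libraries were at 0.0791, 0.246, 0.355 and 0.187 CPM, K27M-AP libraries at 1.21, 0.193, 0.771 and 0 CPM and K27M-APP libraries at 1.69 and 1.70 CPM. Tumours were at 5.01, 3.29 and 0.0471 CPM for K27M-AP T, at 1.17, 0.609, 0 and 0.624 CPM for K27M-APP T and at 1.25 CPM for K27M-P T. Groups other than EV ctl, EV-PDGFRA and K27M-APP thus spread widely, with K27M-AP 4, K27M-AP T 4 and K27M-APP T 3 near 0.

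Meox2 rose in K27M-APP against EV-PDGFRA, groups that share added Pdgfra and differ in the mutant histone, Trp53 and Atrx together. The log2 difference was 6.71 (SE 1.56, adjusted p = 0.0485, edgeR's quasi-likelihood test, higher in 2 of 2 libraries). It was the single member called of 18 tested, with 26 not tested, where 1.94% of all 20197 genes tested were called and 0.906% were called higher. Counts were 186 for K27M-APP and 2 for EV-PDGFRA, a ratio per scaled count of 122 with an exact 95% counting interval of 33.2 to 1010. Since 72.7% of all values from 1 to 20 in the tables were even, the interval was also taken at halved counts and was then 21.3 to 4850. The call was close to the threshold and was lost with a term for the count table (adjusted p = 0.0589), with all 23 libraries in the fit (0.11) and without any 1 of the 5 libraries (0.095 to 0.228). It held with DESeq2 (0.00119), which also called Barhl2 and 6.81% of all genes.

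Meox1, the paralogue of Meox2, was at 0 to 0.116 CPM in preneoplastic libraries, at 0.0864, 0.904 and 0 CPM for K27M-AP T, at 0.146, 0.174, 0.210 and 0.744 CPM for K27M-APP T and at 0.804 CPM for K27M-P T. Of the 8 tumours 6 lay above all 15 preneoplastic libraries. Its difference between the pooled tumour and preneoplastic groups with the mutant histone was 3.21 (log2, SE 1.15, adjusted p = 0.349), which did not pass the threshold. Msx1, a target of BMP signals in neural crest and roof plate, was at 0 to 0.847 CPM (adjusted p = 0.9 between the 8 groups), and Msx2 had counts in 3 libraries.

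**Figure D4:**
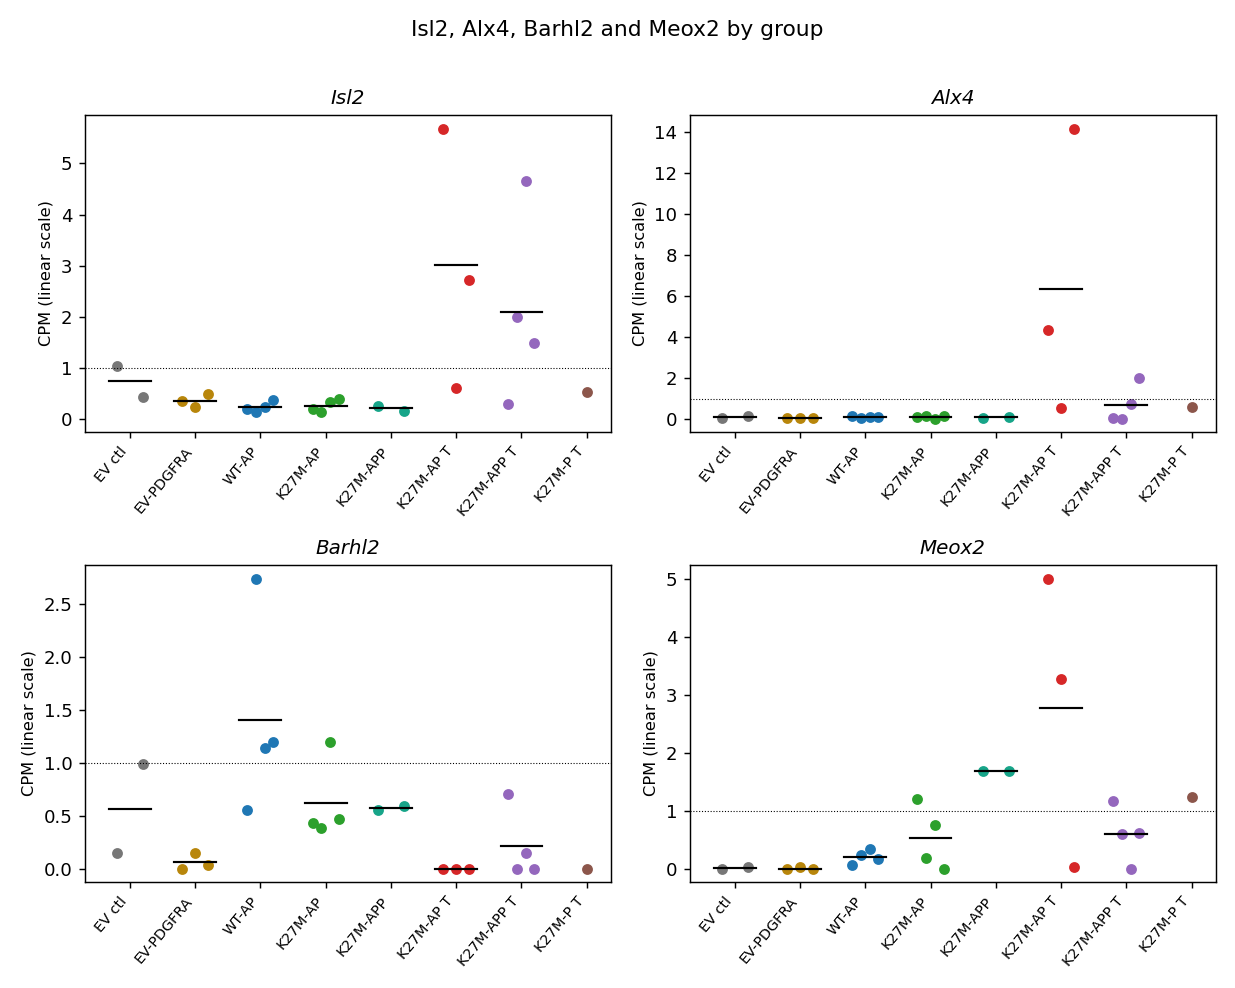
Points are libraries by group and bars are group means for Isl2, Alx4, Barhl2 and Meox2, in CPM on a linear axis, with a dotted line at 1 CPM. Isl2 and Alx4 are highest in tumour libraries, Barhl2 is at 0 in all 3 K27M-AP T libraries and in K27M-P T, and Meox2 is at or near 0 in the 5 libraries of EV ctl and EV-PDGFRA.

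Barhl2, a Bar-class factor of retina, diencephalon and spinal cord, was at 0 in 6 of 8 tumours and in 1 of 15 preneoplastic libraries. It was at 0.554, 2.73, 1.15 and 1.19 CPM for WT-AP, 0.439, 0.386, 1.2 and 0.477 for K27M-AP, 0.557 and 0.592 for K27M-APP, 0.149 and 0.991 for EV ctl and 0, 0.158 and 0.0413 for EV-PDGFRA. It was at 0 in all 3 K27M-AP T libraries and in K27M-P T, and at 0.707, 0, 0.158 and 0 CPM for K27M-APP T. Against the floor of 3 counts over the group, K27M-AP T was at least 29.3-fold lower than K27M-AP, which held 124 counts in 4 libraries. That difference did not pass edgeR's threshold (adjusted p = 0.212) and passed that of DESeq2 (0.00553). Barhl1 had counts in 20 libraries but at most 0.335 CPM.

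The ventral forebrain factors Dlx1 and Dlx2 were high in a few libraries. Dlx1 was at 4.94 CPM in K27M-AP 2 and 4.29 CPM in K27M-AP 4 but at 0.110 and 0.0771 CPM in the other 2 libraries of that group. It was at 0 to 0.114 CPM in the 5 EV ctl and EV-PDGFRA libraries, 0.443 to 0.821 CPM for WT-AP, 0.574 and 0.118 CPM for K27M-APP, 0 to 1.17 CPM for K27M-AP T, 0.146 to 1.01 CPM for K27M-APP T and 2.32 CPM for K27M-P T. Dlx2, which lies 9.43 kb from Dlx1 on chromosome 2, was at 1.397 CPM in K27M-AP 2, 1.73 CPM in K27M-AP 4, 1.46 CPM in WT-AP 3 and 1.83 CPM for K27M-P T, and at 0 to 0.910 CPM elsewhere. The WT-AP libraries of Dlx1 all lay above both EV ctl libraries, by a log2 difference of 3.04 (SE 1.61, adjusted p = 0.561) that did not pass the threshold.

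In K27M-AP 2 and K27M-AP 4, which had the 2 highest Dlx1 levels, 16 genes of inhibitory neurons downstream of Dlx summed to 226 and 343 CPM, the highest of the 23 libraries. K27M-AP 4 also had the highest summed oligodendrocyte list (1849 CPM, against 54.1 to 627 CPM elsewhere) and neuron list (1314 CPM), and Mki67, a proliferation marker, at 19.1 CPM, its lowest level of all libraries. In K27M-P T, where Dlx2 was highest, the inhibitory neuron genes summed to 144 CPM. The part of these lists in the Dlx levels was not tested. The exons of Dlx1 share 335 bases with those of the antisense gene Dlx1as, and whether reads were counted by strand is not given in the sources used here.

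Dlx5 and Dlx6, neighbours 9.24 kb apart, had counts in the same 3 libraries, K27M-AP 2, K27M-AP T 1 and K27M-APP T 3. Dlx6 was at 0.0482, 0.604 and 0.420 CPM there and Dlx5 at 0.0482, 0.173 and 0.368 CPM. The antisense transcript Dlx6os1 was at 0.950 CPM for K27M-AP T 1 and 0.709 CPM for K27M-APP T 3. Dlx4 was detected in 8 libraries, up to 0.683 CPM for K27M-APP T 3, and Dlx3 in 4.

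**Figure D5:**
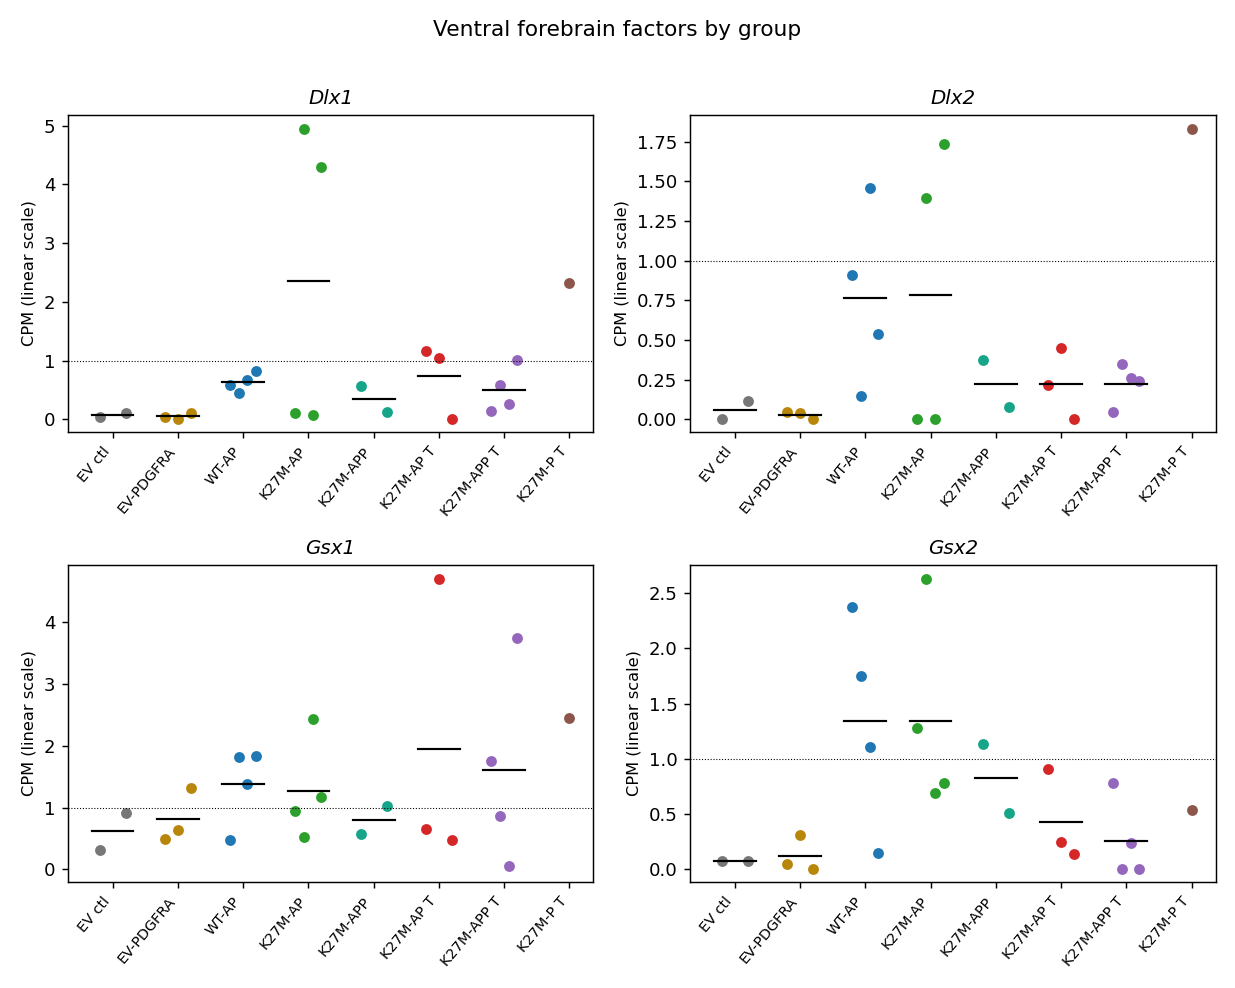
Points are libraries by group and bars are group means for Dlx1, Dlx2, Gsx1 and Gsx2, in CPM on a linear axis, with a dotted line at 1 CPM. The highest 2 Dlx1 values are K27M-AP libraries, the highest Dlx2 value is K27M-P T at 1.83 CPM, and Gsx2 is at most 0.315 CPM in the 5 libraries of EV ctl and EV-PDGFRA.

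Gsx1 and Gsx2, which act upstream of Dlx genes in the ventral forebrain, were low but widespread. Gsx2 was at 0 to 0.315 CPM in the 5 EV ctl and EV-PDGFRA libraries, 2.37, 1.75, 1.11 and 0.149 CPM for WT-AP, 1.28, 2.63, 0.694 and 0.780 CPM for K27M-AP and 1.13 and 0.513 CPM for K27M-APP. Tumours were at 0 to 0.907 CPM. Of the 10 preneoplastic libraries with loss of Trp53, 9 lay above all 5 without it. Gsx1 ran from 0.0525 CPM for K27M-APP T 3 to 4.70 CPM for K27M-AP T 2 and passed 1 CPM in 11 libraries, with an adjusted p of 0.874 between the 8 groups.

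Nkx6-2, a ventral progenitor and oligodendrocyte factor, was at 1.76 to 8.45 CPM in 22 libraries and at 83.2 CPM for K27M-APP T 3. The other 3 K27M-APP T libraries were at 3.85, 3.28 and 3.21 CPM, so that the group had a mean of 23.4 ± 39.9 CPM (SD, n = 4). Neither of its tumour comparisons passed the threshold (adjusted p = 1 for both). In K27M-APP T 3 the Shh pathway targets Gli1, Hhip and Ptch1 were at 145, 313 and 391 CPM, the highest of the 23 libraries, where Gli1 was at 0 to 3.38 CPM and Hhip at 0.952 to 22.1 CPM in the others. BMP response genes summed to 836 CPM there, against 174 to 416 CPM elsewhere. The fibroblast and meningeal list summed to 212 CPM, of which Foxc1 made 203 CPM, with Twist1, Foxd1 and Tbx18 at 0. Inpp5a, whose exons share 246 bases with Nkx6-2 on the other strand, was also highest there, at 36.6 CPM against 9.498 to 26.0 CPM. What these levels contribute to the Nkx6-2 value was not tested.

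The other Nkx members stayed low. Nkx2-1, a ventral forebrain factor, had counts in 3 libraries and at most 0.276 CPM, and Nkx6-1 in 3 libraries and at most 0.0675 CPM. Nkx2-3 and Nkx2-5, factors of gut and heart, had counts in 4 libraries each. Per kilobase of exon, the median Nkx6-2 level (1.69 CPM per kb) lay below that of Prrx1 (3.74) and above those of Prrx2 (1.19) and Six4 (0.955).

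Six4, a partner of Eya proteins in muscle and sensory placodes, was lowest in the libraries without loss of Trp53. It was at 5.74 and 6.61 CPM for EV ctl, 6.98, 6.16 and 6.70 for EV-PDGFRA, 14.6, 12.9, 8.94 and 7.43 for WT-AP, 8.91, 17.4, 6.94 and 17.6 for K27M-AP and 9.78 and 10.6 for K27M-APP. Tumours were at 16.0, 14.97 and 18.3 CPM for K27M-AP T, 11.8, 10.4, 11.6 and 11.7 for K27M-APP T and 8.91 for K27M-P T. Only K27M-AP 3 (6.94 CPM) lay within the range of the EV libraries among the other 18. The log2 difference between WT-AP and EV ctl was 0.84 (SE 0.377, adjusted p = 0.482), which did not pass the threshold.

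Among the LIM homeodomain factors other than Isl2, Lhx9 passed 1 CPM in a single library, K27M-AP 2 at 2.60 CPM, and was at 0 to 0.689 CPM elsewhere. Lhx8, a factor of cholinergic and inhibitory neurons of the basal forebrain, had 56 counts in 7 libraries. K27M-APP libraries were at 0.203 and 0.316 CPM (28 counts), while EV-PDGFRA and K27M-APP T had none, at least 12.2-fold and 16.1-fold lower against 3 counts over the group. Neither difference was called (adjusted p = 0.0989 and 1). Lhx1, Lhx3, Lhx4, Lhx5 and Lhx6 stayed at or below 0.148 CPM.

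Pax9, a factor of pharyngeal endoderm and skeletal precursors, had counts in all 5 EV libraries and in none of the 6 preneoplastic libraries with the mutant histone. It was at 0.298 and 0.191 CPM for EV ctl and 0.135, 0.0394 and 0.165 CPM for EV-PDGFRA, 42 counts in all, and K27M-AP and K27M-APP together were at least 17-fold lower. WT-AP libraries were at 0, 0.246, 0 and 0.112 CPM. Tumours were at 0 in 6 of 8 libraries and at 0.0488 and 0.0290 CPM in K27M-APP T 1 and 2, the first of these above the lowest EV-PDGFRA library. Its exons share 189 bases with Slc25a21 on the other strand. Pax8 was detected in 14 libraries. Pax1, Pax2, Pax3, Pax5 and Pax7 had 2 to 10 counts each over the 23 libraries.

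The mutant histone was compared with the wild-type one on the same Trp53 and Atrx background in K27M-AP against WT-AP, and no member passed the threshold. Of 18 members tested (26 not tested) 0 were called by edgeR's quasi-likelihood test, 0 by DESeq2 and 2 had an unadjusted p below 0.05. Over all 20197 genes 0.0297% were called (0.318% by DESeq2) and 3.95% had an unadjusted p below 0.05. The 2 were Lhx8, with a mean of 0.0650 CPM for K27M-AP and 0 for WT-AP, and Pax9, with 0 for K27M-AP and a mean of 0.0895 CPM for WT-AP. The median log2 difference of the members was 0.03, beside 0.01 over all genes.

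Pdgfra alone, in EV-PDGFRA against EV ctl, also left all members uncalled. Of 18 tested 0 were called by edgeR, where 0% of all genes were called, and 0 by DESeq2, where 0.512% were. Only Barhl2 had an unadjusted p below 0.05 (log2 difference -2.99, SE 1.03, adjusted p = 0.681), where 7.03% of all genes did. Pdgfra added to the mutant histone, K27M-APP against K27M-AP, gave 0 called of 18 by either tool and 0 with an unadjusted p below 0.05, against 0% by edgeR, 0.0298% by DESeq2 and 5.94% over all genes. Prrx2 was at 6.30 and 5.13 CPM for K27M-APP and at 1.47 to 4.82 CPM for K27M-AP without overlap, a log2 difference of 1.16 (SE 0.615, adjusted p = 0.667) that did not pass the threshold. The difference between the Pdgfra effects in both backgrounds was called for 0 of 18 members (0 at an unadjusted p below 0.05).

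WT-AP against EV ctl, which adds wild-type H3.3, loss of Trp53 and the Atrx shRNA together, gave 0 called of 18 by edgeR, where 0.312% of all genes were called and 0.0842% were called higher in WT-AP. DESeq2 called Gsx2 (log2 difference 4.15, adjusted p = 0.0171) and 2.24% of all genes. Gsx2, Isl2, Prrx1 and Six4 had an unadjusted p below 0.05, 4 of 18, where 10% of all genes did. Prrx1 differed by -0.82 (log2, SE 0.318, adjusted p = 0.394) and rested on EV ctl 5. Without that library it was 0.08 (adjusted p = 0.951), and without EV ctl 4 it was -1.37 and called (0.0252).

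In K27M-APP against EV-PDGFRA, where Meox2 was called, 7 of 18 members had an unadjusted p below 0.05, against 15.5% of all genes. Besides Meox2 these were Lhx8, Barhl2 (log2 3.04), Prrx2 (1.89), Gsx2 (2.73), Prrx1 (-0.81) and Pax9. Prrx1 was at 39.2 and 42.5 CPM for K27M-APP and 69.6 to 74.0 CPM for EV-PDGFRA, without overlap. With only these 2 groups in the fit, edgeR called 4 members, Meox2, Prrx1, Prrx2 and Lhx8, where 12.1% of all genes were called. Of 52 cell type markers tested in the same comparison edgeR called 0, with 14 at an unadjusted p below 0.05, and DESeq2 called 4.

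Tumours were compared with preneoplastic cells of the same genotype, and no member passed edgeR's threshold. For K27M-AP T against K27M-AP 0 of 19 members were called (25 not tested), where 0.0245% of 20373 genes were. Prrx1, Prrx2, Alx4, Barhl2 and Isl2 had an unadjusted p below 0.05, 5 of 19, where 12.2% of all genes did. DESeq2 called Alx4, Barhl2 and Isl2 and 2.86% of all genes. Alx4, Dlx4, Dlx6 and Meox1 passed the filter of this fit but not that of the preneoplastic fit. Members thus entered partly through tumour libraries where they were high. Shares of the 19 are not read as an excess in any contrast of this fit. For K27M-APP T against K27M-APP 0 of 19 were called by either tool (0% of all genes by edgeR and 0.313% by DESeq2), and Lhx8 and Isl2 had an unadjusted p below 0.05, where 3.33% of all genes did. The tumour effects in both genotypes differed for 0 of 19 members at the adjusted threshold and for 3 at an unadjusted p below 0.05, the lowest adjusted p being 0.913. The 2 contrasts pooled, added after the data were seen, gave 0 of 19 called by edgeR, where 0.0736% of all genes were (0.0687% higher in tumours). By edgeR 8 of 19 had an unadjusted p below 0.05, where 10% of all genes did. DESeq2 called Alx4, Barhl2 and Isl2 and 2.84% of all genes.

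Cell type markers were read in the same tumour contrasts, and edgeR called 0 of the 51 tested in each. For K27M-AP T against K27M-AP 14 of 51 markers had an unadjusted p below 0.05 by edgeR, where 12.2% of all genes did. DESeq2 called 3 higher and 3 lower there. For K27M-APP T against K27M-APP 2 of 51 had an unadjusted p below 0.05, where 3.33% of all genes did, and DESeq2 called 0. The endothelial list summed to 12.03 to 17.9 CPM for K27M-AP T and 4.42 to 5.59 CPM for K27M-AP, without overlap, and to 7.83 to 18.5 CPM for K27M-APP T and 6.31 to 8.33 CPM for K27M-APP. These sums were mostly Kdr, at up to 16.8 CPM. The other genes of the list reached at most 2.01 CPM (Flt1) in any library, so the sums do not show endothelial cells as such. The fibroblast and meningeal list summed to 24.8 to 57.6 CPM for K27M-AP T and 10.9 to 85.9 CPM for K27M-AP. In the 2 contrasts pooled edgeR called 0 of 51 markers, with 13 at an unadjusted p below 0.05, where 10% of all genes were. Among the 13 were 4 of the 5 fibroblast and meningeal markers tested, and DESeq2 called 3 markers higher. The part of these markers in the member values was not tested.

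Tumours with delivered Pdgfra against those without it, K27M-APP T against K27M-AP T, had 0 of 19 members called by either tool, where 0% of all genes were called by edgeR and 0.0544% by DESeq2. Prrx1, Prrx2, Alx4, Lhx8 and Barhl2 had an unadjusted p below 0.05, where 2.67% of all genes did, and all had an adjusted p of 1. Of these, Prrx1, Prrx2 and Alx4 were highest in K27M-AP T 4.

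The patterns of Meox2, Gsx2, Six4 and Pax9 prompted a contrast that was added after the levels were seen. It set the 10 preneoplastic libraries with loss of Trp53, an Atrx shRNA and a delivered H3.3 against the 5 EV ctl and EV-PDGFRA libraries, so that these 3 changes cannot be told apart. Meox2 (log2 4.99, SE 1.12, adjusted p = 0.0164) and Gsx2 (3.54, SE 0.851, adjusted p = 0.022) were higher by edgeR's quasi-likelihood test. Prrx1 (-0.84, SE 0.209, adjusted p = 0.026) and Pax9 (-4.36, SE 1.15, adjusted p = 0.0492) were lower. These were 4 of 18 members tested, where 8.79% of all genes were called and 3.55% were called higher, and 9 of 18 had an unadjusted p below 0.05, where 24.5% of all genes did. Dlx1 (adjusted p = 0.0568) and Six4 (0.0579) were just outside the threshold. Since the members led to the contrast, its p-values are not independent of these levels.

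The calls in this pooled contrast depended on single libraries of several groups and on the fit. Without EV ctl 5 none of the members was called, without EV ctl 4 Prrx1 alone was, and without EV-PDGFRA 1 or K27M-APP 1 Meox2 alone was. Over all genes 805, 2192, 1050 and 848 were called in those fits, in that order, beside 1775 in the main fit. From 20136 to 21035 genes were tested in these and the next fits, so the calls over all genes moved too. Without EV-PDGFRA 3 (1109 genes called) or K27M-APP 2 (739), and with a term for the count table (7.11% of all genes called), Meox2 and Gsx2 were called. With the replicate number as a block 0 members were called, where 6.37% of all genes were. The labels do not say whether the numbers mark a shared batch. The Pax9 call was lost in 15 of 20 alternatives, among them DESeq2 size factors (adjusted p = 0.0504) and no filter on low counts (0.052). DESeq2 called 9 members, adding Dlx1, Dlx2, Barhl2, Isl2 and Six4, where it called 15.3% of all genes. Of 52 cell type marker genes tested 8 were called in the same contrast. Vim of neural progenitors, Aldh1l1 and Slc1a3 of astrocytes, and Tbx18 and Foxc1 of meningeal mesenchyme were lower, and Mog of oligodendrocytes, Col1a2 of fibroblasts and Kdr of endothelium were higher. The part of these marker differences in the member values was not tested.

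Genes related to the members by family or pathway, 83 in 7 lists of which 68 were tested, were called by edgeR in 2 of the 10 contrasts run, the 2 with the most calls over all genes. In K27M-APP against EV-PDGFRA 3 rose and 0 fell, where 1.94% of all genes were called. They were Calb2, a calcium-binding protein of inhibitory neurons (log2 9.70, adjusted p = 0.00688), Eya1, a cofactor of Six4 and its relatives (2.70, adjusted p = 0.0138), and Lmo2, a partner of LIM proteins (2.44, adjusted p = 0.0312). In the pooled contrast on loss of Trp53 9 rose and 1 fell, where 8.79% of all genes were called. Calb2, Eya1 and Lmo2 were among those that rose, but both contrasts share the EV-PDGFRA and K27M-APP libraries. Hhip, an inhibitor of Shh (log2 1.64, adjusted p = 0.00943), Cbx2, a polycomb subunit (0.94, adjusted p = 0.0124), Npy, Barx2, Ldb2 and Lmo3 also rose. The ligand gene Shh fell (-2.04, adjusted p = 0.0211). In each of the other contrasts edgeR called 0 of the 68, with 3 to 11 at an unadjusted p below 0.05, and DESeq2 called 0 to 3.

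Among paralogues outside the set, Pax6, Lhx2 and Nkx2-2, which are textbook forebrain and oligodendrocyte lineage factors, were expressed in every library. Pax6 was at 12.8 to 76.4 CPM, Lhx2 at 14.0 to 137 CPM and Nkx2-2 at 7.97 to 47.2 CPM over the 23 libraries.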

How the data were processed

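RNA depleted of ribosomal RNA was sequenced from both ends on an Illumina instrument, per the labels. The authors deposited raw counts per gene in 2 tables, an earlier and a later one. Tools listed in the submitters' processing notes are featureCounts 1.4.4, STAR 2.3.0e, SAMtools 0.1.19 and Trimmomatic 0.32, with the mm10 build. The strand setting, the annotation and the treatment of reads with several matches are not given in the sources used here. The 12 libraries in both tables held identical values, and 8 columns of other samples were not analysed here. For the table term and single-table fits, libraries with a column in the earlier table counted as earlier and the rest as later. All EV ctl libraries were later, and all K27M-APP and K27M-P T libraries were earlier. Differences of these groups from others thus cannot be fully told apart from differences between the tables.

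The tests used edgeR 4.0.16 in R 4.3.3. CPM are counts relative to TMM-scaled library totals. Genes passed filterByExpr (minimum count 10, minimum total 15). Quasi-likelihood F-tests were fitted to group means over 15 preneoplastic libraries, 13 libraries of the K27M-AP and K27M-APP genotypes, or all 23, with Benjamini-Hochberg adjustment over all genes tested and a call at 0.05. log2 differences are those of the fit. Counting intervals are exact at 95%, floors are 3 counts over a group, and both cover counting error only. The bounds for Barhl2, Lhx8 and Pax9 use the counts as deposited and were not taken at halved counts. With a floor of 3 halved counts they would be lower. The fits were tested on simulated counts with changes set only in well-counted genes and the same spread for every gene. Genes as low or as variable between libraries as most members were not covered.

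The members, gene lists and tests were chosen with earlier results of these data known. Named members have a group mean of at least 1 CPM or a call, and others are given by their highest value. From each related list up to 3 called genes are named, and some genes of these lists are not reported here. Further genes given as library values or ranges (Gli1, Ptch1, Foxc1, Inpp5a, Mki67, Dlx6os1, Csf1r, C1qa, Tyrobp, Kdr, Cdh5, Cldn5 and Flt1) were chosen after their values were seen. The same holds for the members Lhx8, Lhx9 and Meox1. Alternatives were DESeq2 size factors, DESeq2 1.42.0 as the test, no filter, a term for the table, the replicate number as a block, other sets of libraries and leaving out each library. The 2 pooled contrasts and each table alone were added after the data were seen. Deviations from group means correlated at -0.197 to 0.579 between libraries of the same replicate number. The correlation was 0.46 and 0.579 for numbers 2 and 3 of K27M-AP and WT-AP, and -0.197 for number 1. For the tumour groups K27M-APP T and K27M-AP T it was 0.379 for number 2 and -0.0155 for number 4. The numbers thus did not pair libraries throughout, and whether some mark a shared batch was not tested. Positions are from GENCODE M21 on GRCm38.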

Additional observations from a re-analysis of the deposited data

Results flagged for a closer look

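Among 41 sets of values (a named member in a group of 4 libraries), 4 held 1 library set apart from the other 3 by most of the group's range. The rule sets apart about 1 in 20 sets of independent values with a normal spread. The sets here reuse the same libraries and many values are near the floor. That rate may thus not hold, and the 4 are not read as an excess. Nkx6-2 was at 83.2 CPM in K27M-APP T 3 and at 3.21 to 3.85 CPM in the other K27M-APP T libraries. Nkx6-2 was at 2.43 CPM in WT-AP 5 and at 3.05 to 3.16 CPM in the other WT-AP libraries. Six4 was at 10.4 CPM in K27M-APP T 2 and at 11.6 to 11.8 CPM in the others of its group. Barhl2 was at 1.2 CPM in K27M-AP 3 and at 0.385 to 0.477 CPM in the other K27M-AP libraries.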

How the results depend on the processing

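The number of members called depended on the settings in several contrasts, and the cause was not tested. Between the 8 groups it was 2, with 8 by DESeq2, 0 in the later table alone and 2 to 4 with 1 library left out (4 without K27M-APP T 1 or K27M-APP T 2). For K27M-APP against EV-PDGFRA it was 1, with 0 under the table term, 0 with all 23 libraries, 4 with only the 2 groups, 2 by DESeq2 and 0 to 0 with 1 library left out. For the pooled contrast on loss of Trp53 it was 4, with 2 under the table term, 9 by DESeq2 and 0 to 5 with 1 library left out. It was 0 without EV ctl 5, 1 without EV ctl 4, EV-PDGFRA 1 or K27M-APP 1, and 2 without EV-PDGFRA 3 or K27M-APP 2. Calls over all genes in that contrast ran from 739 (without K27M-APP 2) to 2707 (without K27M-AP 4), beside 1775 in the main fit. For K27M-AP T against K27M-AP it was 0, with 2 with all 23 libraries and 3 by DESeq2. For the pooled tumours against preneoplastic cells it was 0, with 1 with all 23 libraries and 3 by DESeq2. For WT-AP against EV ctl it was 0, with 1 by DESeq2 and 0 to 1 with 1 library left out (1 without EV ctl 4). All other contrasts gave 0 in all alternatives run. Members at 1 CPM numbered 14, and 12 to 18 under the other thresholds and scaling. The sign of the Prrx1 difference turned for WT-AP against EV ctl without EV ctl 5 (range -1.37 to 0.0792 with 1 library left out) and for K27M-APP T against K27M-AP T without K27M-AP T 4 (-1.72 to 0.0889). Of 744 gene-level alternatives to 45 results 674 kept direction and side of the threshold, 43 lost a call and 25 gained one. Most of the 45 were not called in the main fit, so this share does not measure how stable the calls were. In the pooled contrast on loss of Trp53 the call was lost in 15 of 20 alternatives for Pax9, 8 of 21 for Prrx1, 6 of 21 for Gsx2 and 3 of 21 for Meox2. It was lost in 7 of 13 for Meox2 in K27M-APP against EV-PDGFRA. Between the 8 groups Alx4 and Isl2 each lost it in 2 of 30.

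With the replicate number as a block, the pooled contrast on loss of Trp53 called 0 members, K27M-APP against EV-PDGFRA called Meox2 (adjusted p = 0.0353), the 8 groups called 2, and the other contrasts with shared numbers called 0. Libraries of the same number correlated at -0.197 to 0.579 in their deviations from group means, so the numbers did not pair libraries throughout. The block was not run for WT-AP against EV ctl and EV-PDGFRA against EV ctl. At these depths 3 counts stand for 0.0435 to 0.0788 CPM, so most members lie near the limit of detection, and 25 of 44 passed the filter on low counts over all 23 libraries.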
